A study of Rattus norvegicus with 10 samples.

Results

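Map2, Dlg4 and Gdnf are 3 genes best known for roles in neurons or in their support, and their signals were followed in whole lung of rats in septic shock. They were chosen by name, through the RefSeq accession that the array files give for Agilent catalogue probes. Of 50 such probes on the array 30 matched a rat gene and 29 of these genes could be tested, and Map2, Dlg4 and Gdnf each had 1 probe among them. The array held 38804 probes in all, of which 36020 were tested.

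The study set lung tissue of male Wistar rats, 8 weeks old, with shock brought on by lipopolysaccharide (LPS), against lung of control rats of the same strain, sex and age. LPS is a component of the bacterial outer membrane that sets off innate immunity. There were 5 LPS arrays (replicates 1, 3, 5, 6 and 7) and 5 control arrays (replicates 15, 16, 17, 18 and 20), each a single-colour Agilent array with Cy3-labelled RNA. The dose, route and duration of LPS, and what the controls were given, are not stated in the sources used here. Nothing in the labels says that each array came from a separate animal, so a p-value measures the spread between arrays, which may be technical.

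By the scan stamps in the file headers the arrays lay on 3 slides. Slide 2 held control replicates 15 to 18, slide 1 held LPS replicates 6 and 7, and slide 3 held LPS replicates 1, 3 and 5 with control replicate 20. Only slide 3 carried both groups. No probe could be named for any gene of 12 marker lists of lung, nerve and blood cell types, so the labelled tissue was not checked against markers. In whole tissue, fewer cells of a type and less RNA per cell cannot be told apart.

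Map2 binds and stabilises microtubules in dendrites, the receiving branches of neurons. Dlg4, also called PSD-95, is a scaffold that anchors glutamate receptors and their signalling partners beneath the membrane of excitatory synapses. Gdnf is a secreted ligand of the transforming growth factor beta superfamily. It signals through the co-receptor Gfra1 and the receptor tyrosine kinase Ret, supports motor and dopamine neurons, and guides the development of the enteric nervous system and kidney. The lung holds nerve fibres and airway ganglia, while most neurons that supply it have their cell bodies elsewhere.

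The probe of Map2 (A_44_P111897) carries the accession NM_013066, that of Dlg4 (A_44_P238314) NM_019621 and that of Gdnf (A_44_P500961) NM_019139. Each accession is a curated RefSeq transcript of its gene. RefSeq lists 51 transcripts for Map2, 7 for Dlg4 and 4 for Gdnf, and most of those of Map2 and Dlg4 are predictions. A value below is therefore the signal of 1 probe, and which isoforms it reads was not tested. The 250 bases before the RefSeq start of each gene are shown to set the genes' start regions side by side, from RefSeq assembly GRCr8, all on the plus strand, 5′ to 3′. Capitals mark matches to the motifs searched.
Map2, chr9:75346440-75346689: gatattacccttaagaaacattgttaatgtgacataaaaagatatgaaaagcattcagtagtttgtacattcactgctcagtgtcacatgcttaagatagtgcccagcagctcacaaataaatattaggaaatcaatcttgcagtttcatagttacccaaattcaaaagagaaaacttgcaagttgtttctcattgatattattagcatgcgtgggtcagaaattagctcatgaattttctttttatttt
Dlg4, chr10:55239534-55239783: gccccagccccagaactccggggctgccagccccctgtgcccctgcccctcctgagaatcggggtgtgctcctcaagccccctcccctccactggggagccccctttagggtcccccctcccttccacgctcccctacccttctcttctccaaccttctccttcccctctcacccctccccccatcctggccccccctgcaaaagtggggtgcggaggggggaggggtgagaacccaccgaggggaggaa
Gdnf, chr2:58621077-58621326: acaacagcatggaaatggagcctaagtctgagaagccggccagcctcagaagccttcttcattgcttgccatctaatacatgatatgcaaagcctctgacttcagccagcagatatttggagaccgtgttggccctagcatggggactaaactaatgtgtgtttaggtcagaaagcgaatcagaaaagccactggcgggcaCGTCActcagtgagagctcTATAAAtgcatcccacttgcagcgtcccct

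The start regions differ in base composition. The Map2 window is 32% G and C, lower than in all but 2.88% of 33469 RefSeq promoters of this length. The Dlg4 window is 69.2% G and C, and 90.8% of promoters have less. The Gdnf window, at 49.6%, lies near the promoter median of 51.2%. For Map2 and Dlg4 the start used here lies inside the gene's span, so other transcripts of both genes begin further upstream. Both strands were searched for 8 motifs. Of general promoter elements these were the TATA box, as TATAAA, the CCAAT box, and a GC box, as GGGCGG. Of inducible elements they were the core of the cAMP response element, as TGACG, the AP-1 site, as TGANTCA, and the start of the kappa enhancer site of NF-kB, as GGGACTTTC. The neuronal silencer element RE1 was searched as its left part, TTCAGCACC, and separately as its right part, GGACAGC. In the Gdnf window TATAAA stands with its first base 30 bases before the start, and TGACG on the minus strand at 49 to 45 bases before it. TATAAA occurs in 12.9% of all promoters and TGACG in 18.2%. None of the motifs occurs in the windows of Map2 and Dlg4, and neither RE1 part occurs in any of the 3. The RE1 parts are found in 0.305% and 5.30% of promoters, CCAAT in 34%, GGGCGG in 30.5%, TGANTCA in 6.34% and GGGACTTTC in 0.272%.

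All 3 probes were dim. Each was printed 10 times on every array, which gave 100 spots per gene. Map2 and Dlg4 were well above background, by the scanner software's own call, on all 100 of their spots. Their mean spot brightness was 1.64 to 2.18 times the local background for Map2 and 1.44 to 2.0 times for Dlg4. Gdnf came closer to the background, at 1.08 to 1.46 times. That ratio went with the slide, from 1.32 to 1.46 on slide 3, control replicate 20 included, and from 1.08 to 1.22 on the other slides. Gdnf was well above background on 28 of 50 LPS spots and 41 of 50 control spots. Among the 4 controls of slide 2 that count was 39 of 40, and on control replicate 20 it was 2 of 10. Both of these spots of control replicate 20 were left out as outliers, and none of its 7 kept spots was well above background. Spot signal on these arrays is given after subtraction of background, in the scanner's linear intensity units. It is not spot brightness minus local background alone. On LPS replicate 6 the Gdnf spots had a mean brightness of 20.65, a local background of 19.2 and a processed signal of 5.33. On LPS replicate 1 these were 24.6, 16.85 and 6.71. A fit on brightness minus local background alone was not made. The 153 negative control spots reached 1.09 to 1.67 at their 95th percentile per array, and every kept spot of all 3 genes lay above that of its array. That bar was low, and on control replicate 15 it equalled the median of the negative controls, at 1.11. On LPS replicate 1 the lowest Gdnf spot, at 1.337, passed a bar of 1.331. Lying above it therefore does not show that a spot was detected. Of the tested probes, 16.2% had a lower mean signal than Map2, 12.4% a lower one than Dlg4 and 1.56% a lower one than Gdnf.

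**Figure D1:**
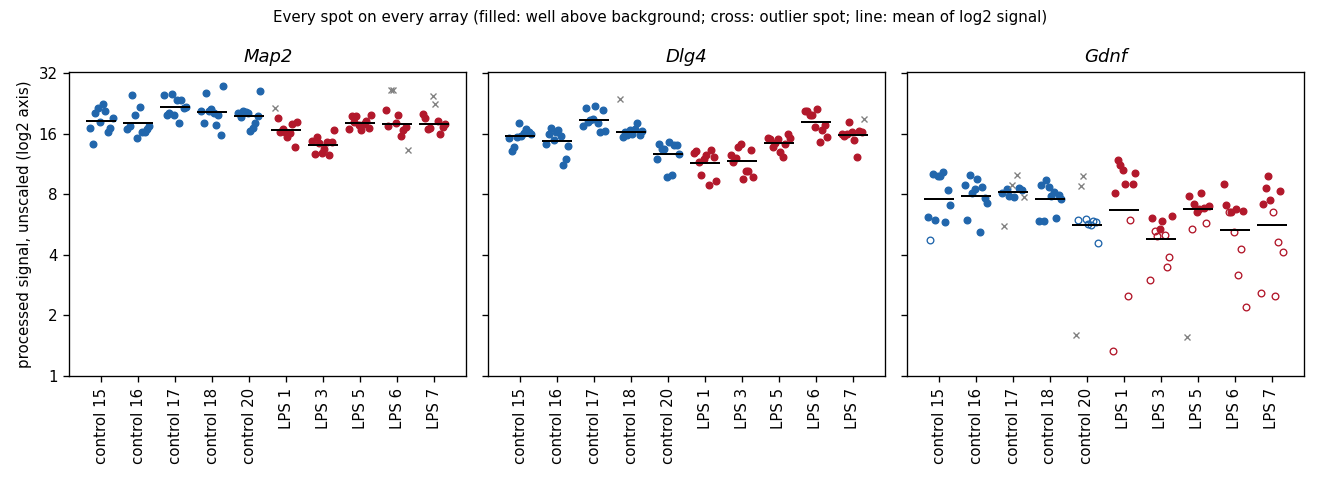
Processed signal of each of the 10 spots of Map2, Dlg4 and Gdnf on each of the 5 control (blue) and 5 LPS (red) arrays, before scaling between arrays, on a log2 axis. Filled points are spots well above background, open points are not, grey crosses are spots marked as outliers and left out, and black lines are the mean of the log2 signal of the kept spots. Map2 and Dlg4 have no open point, whereas Gdnf has open points on every LPS array and on control replicates 15 and 20.

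The main comparison asked which transcripts differed between LPS and control lung. After scaling, Map2, Dlg4 and Gdnf each fell in LPS lung, by 0.67, 0.59 and 0.78 on the log2 scale, so the control signal was 1.59, 1.5 and 1.72 times the LPS signal. Values were log2 of the probe's mean signal minus log2 of the array's 75th percentile of probe signal, and limma was fitted over all tested probes. A probe was called where the Benjamini-Hochberg adjusted p was below 0.05. In this comparison 33.0% of all tested probes were called and 18.2% were called lower in LPS. The members were chosen with these results known, so that all 3 were called lower is a description. None of the 3 falls passed the threshold once slide was in the model, as given after the values of each gene.

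Map2, the microtubule protein, had unscaled signals of 16.6, 14.1, 18.1, 17.9 and 17.8 on LPS replicates 1, 3, 5, 6 and 7. On control replicates 15, 16, 17, 18 and 20 it had 18.5, 18.1, 21.7, 20.5 and 19.7. The ranges met near 18, at LPS replicate 5 and control replicate 16. Scaled, the LPS values were -4.52, -4.91, -4.77, -4.79 and -4.77, and the control values -4.24, -3.94, -3.84, -3.86 and -4.51. All LPS arrays then lay below all controls, but LPS replicate 1 was only 0.012 below control replicate 20. The brightest Map2 spot of LPS replicate 1, at 21.5, was left out as an outlier, and this gap depends on that choice. A call with lower values and no overlap was made at 9.44% of all tested probes. The LPS mean was -4.75 ± 0.14 (SD, n = 5) and the control mean -4.08 ± 0.29 (SD, n = 5). The difference was -0.67 ± 0.15 (SE, 95% interval -0.99 to -0.35), with a limma adjusted p of 0.00652.

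Dlg4, the synaptic scaffold, had unscaled signals of 11.4, 11.6, 14.3, 18.2 and 15.7 on LPS replicates 1, 3, 5, 6 and 7. The controls gave 15.6, 14.6, 18.8, 16.3 and 12.7 on replicates 15, 16, 17, 18 and 20. These ranges overlapped widely. Scaled, the LPS values were -5.05, -5.19, -5.11, -4.76 and -4.95, and the control values -4.49, -4.25, -4.05, -4.19 and -5.14. The 4 slide 2 controls lay above all LPS arrays, while control replicate 20 lay below 4 of the 5. The LPS mean was -5.01 ± 0.16 (SD, n = 5) and the control mean -4.42 ± 0.43 (SD, n = 5). The difference was -0.59 ± 0.19 (SE, 95% interval -1.0 to -0.17), with a limma adjusted p of 0.0339. Dropping any single array among LPS replicates 1, 3, 5, 7 and control replicates 15, 16, 17, 18 ended the call, at differences from -0.61 to -0.50 and limma adjusted p values from 0.0569 to 0.0868.

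Gdnf, the secreted neurotrophic ligand, had unscaled signals of 6.71, 4.80, 6.78, 5.33 and 5.60 on LPS replicates 1, 3, 5, 6 and 7. The controls gave 7.56, 7.83, 8.18, 7.54 and 5.64 on replicates 15, 16, 17, 18 and 20. In this processed signal the 4 slide 2 controls were the highest arrays before any scaling, and control replicate 20 lay among the LPS arrays. The order was another by the ratio of spot brightness to local background. That ratio was 1.09 to 1.22 on the slide 2 controls and 1.32 to 1.46 on the slide 3 arrays. Scaled, the LPS values were -5.83, -6.47, -6.19, -6.53 and -6.44, and the control values -5.54, -5.15, -5.25, -5.30 and -6.31. After scaling the slide 2 controls were again the highest arrays, and control replicate 20 again lay above 3 LPS arrays and below the other two. The LPS mean was -6.29 ± 0.29 (SD, n = 5) and the control mean -5.51 ± 0.47 (SD, n = 5). The difference was -0.78 ± 0.22 (SE, 95% interval -1.26 to -0.30), with a limma adjusted p of 0.0194. Dropping control replicate 17 gave -0.72 and dropping control replicate 18 gave -0.73, with limma adjusted p at 0.0507 and 0.0503, which ended the call. With at least 50% of kept spots above background as the criterion, 4 of 5 LPS and 4 of 5 control arrays measured Gdnf, and LPS replicate 3 and control replicate 20 did not. LPS replicates 6 and 7 met it with just 5 of 10 kept spots, and LPS replicates 1 and 5 with 7 of 10 and 7 of 9. On control replicates 15, 16, 17 and 18 it was 9 of 10, 10 of 10, 6 of 6 and 10 of 10.

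**Figure D2:**
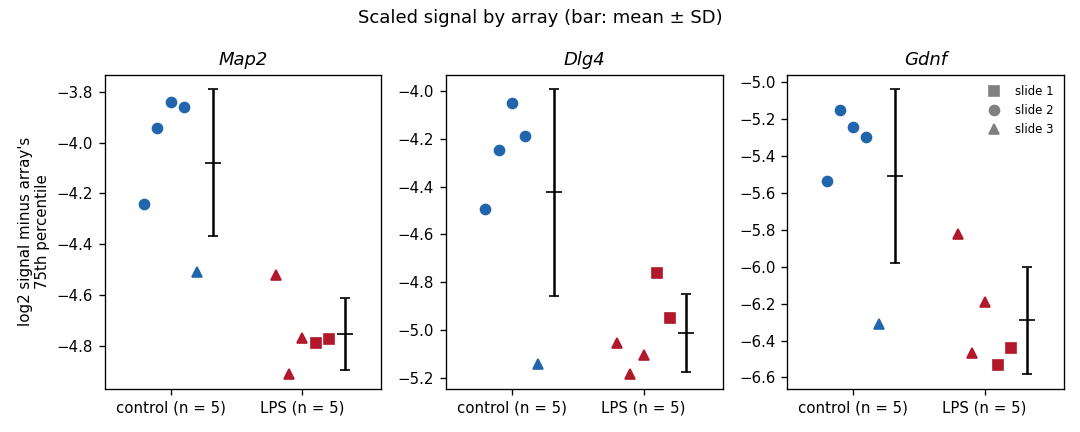
Scaled log2 signal (log2 signal minus that of the array's 75th percentile) of Map2, Dlg4 and Gdnf on each control (blue) and LPS (red) array, with point shape giving the slide and black bars the mean ± SD of 5 arrays. The 4 slide 2 controls (circles) lie above every LPS array for each gene, and control replicate 20 (blue triangle, slide 3) lies at -4.51, -5.14 and -6.31, at or within the LPS range for Dlg4 and Gdnf and 0.012 above it for Map2.

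The agreement between the 10 spots of a probe gave the precision of each value within its array. The spots of an array share its sample and slide, so it leaves out technical spread between arrays. The SD of log2 signal between spots of 1 array had a median of 0.15 for Map2, 0.17 for Dlg4 and 0.32 for Gdnf. It ran from 0.091 to 0.24 for Map2 and from 0.067 to 0.21 for Dlg4. For Gdnf it reached 1.05 on LPS replicate 1, where the kept spots ran from 1.34 to 11.8. The standard error of an array's value over its spots was at most 0.075 for Map2 and 0.067 for Dlg4, but up to 0.33 for Gdnf. The SD between arrays was 0.14, 0.16 and 0.29 in the LPS group for Map2, Dlg4 and Gdnf. Among the slide 2 controls it was 0.19, 0.19 and 0.16, and with control replicate 20 added it rose to 0.29, 0.43 and 0.47. With the median over spots in place of the mean, a choice made after the values were seen, Map2 and Dlg4 kept their calls, while Gdnf was at -0.61 with a limma adjusted p of 0.0678.

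The size of each fall rested in part on the scaling. The 75th percentile of signal was 278.1 to 351 on the slide 2 controls, 447.6 on control replicate 20 and 380.5 to 494.5 on the LPS arrays. On the log2 scale it was 0.45 higher in LPS arrays than in controls. Without scaling, the median tested probe was 0.40 higher in LPS arrays, and with scaling its difference was -0.054. Unscaled, Map2 was at -0.22 (95% interval -0.52 to 0.075), Dlg4 at -0.14 (-0.51 to 0.24) and Gdnf at -0.33 (-0.68 to 0.018). Their limma adjusted p values were 0.204, 0.532 and 0.113, so none was called, where 41.0% of all tested probes were called and 3.59% called lower. Relative to the median tested probe the differences were -0.62, -0.53 and -0.73, which by arithmetic are the same with and without scaling, since scaling subtracts 1 constant per array. Dim probes as a whole lay lower in LPS arrays after scaling, with a median difference of -0.16 in the dimmest 10% of tested probes, which hold Gdnf, and -0.14 in the next 10%, which hold Map2 and Dlg4. Of the probes in these 2 bands 19.2% and 20.4% were called lower. Cyclic loess, which lets the scaling vary with signal, gave -0.57 for Map2, -0.47 for Dlg4 and -0.58 for Gdnf, at limma adjusted p values of 0.00558, 0.0359 and 0.0323. It called 34.7% of all tested probes, and 17.2% lower.

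Among controls the values of all 3 genes also differed between slides, but slide 3 held 1 control array. That array, control replicate 20, had the lowest share of spots well above background, 90.1% against 91.6% to 93.8% on the others. Its negative control median was the highest, at 1.53 against 1.0 to 1.36. A trait of this array and an effect of its slide cannot be told apart. Control replicate 20 differed from the mean of the slide 2 controls by -0.54 for Map2, -0.90 for Dlg4 and -1.0 for Gdnf. Against the 3 LPS arrays on its own slide its difference was 0.23 for Map2, -0.026 for Dlg4 and -0.15 for Gdnf. With slide as a fixed block, LPS minus control was -0.23 (95% interval -0.68 to 0.23) for Map2, 0.026 (-0.39 to 0.44) for Dlg4 and 0.15 (-0.38 to 0.68) for Gdnf. The limma adjusted p values were 0.525, 0.949 and 0.740. Only slide 3 informs these values, so their control arm is 1 array, assumed to vary like the others, and its Gdnf signal of 5.64 lay below 6.97, the lowest signal of any probe well above background there. With slide as a random block the differences were -0.43, -0.23 and -0.28, at limma adjusted p values of 0.173, 0.505 and 0.533. Of the 6564 probes called lower without a block, 13.0% were called lower with slide as a fixed block, and that fit called 10.1% of all tested probes and 5.28% lower.

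Without control replicate 20, group and slide cannot be told apart. The differences were then -0.78 for Map2, -0.77 for Dlg4 and -0.98 for Gdnf. Their limma adjusted p values were 0.000252, 0.000359 and 0.000349, and 54.3% of all tested probes were called, 29.4% lower. The LPS arrays themselves lay on a pair of slides, and for Dlg4 the mean of the 2 arrays of slide 1 was 0.26 above that of the 3 arrays of slide 3. For Gdnf that difference was -0.33 and for Map2 -0.047.

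**Figure D3:**
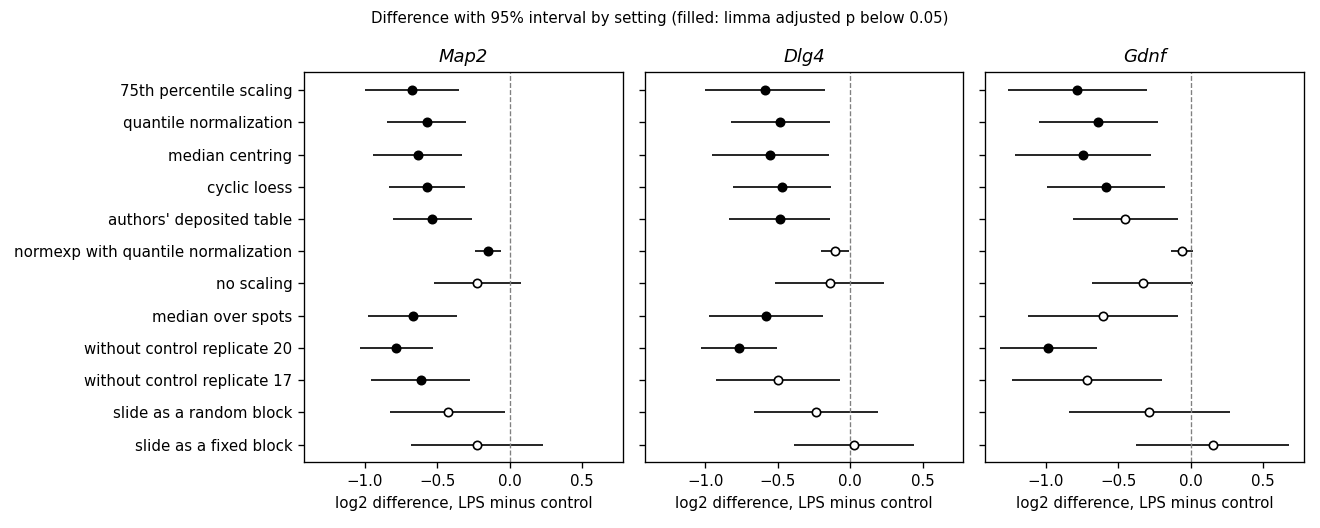
Log2 difference, LPS minus control, of Map2, Dlg4 and Gdnf in limma fits over all tested probes under 12 settings, with 95% intervals, where filled points have an adjusted p below 0.05. The Map2 difference stays below 0 in every setting shown but its call is lost without scaling and with slide as a block. Dlg4 and Gdnf lie at 0.026 and 0.15 with slide as a fixed block.

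The authors' deposited table of log2 values placed the arrays in much the same order, apart from Gdnf. In the authors' deposited table Map2 lay at 3.83 to 4.10 on LPS arrays and 4.14 to 4.67 on controls. Dlg4 lay at 3.55 to 3.79 and 3.55 to 4.39 in the authors' deposited table, where control replicate 20 was again the lowest control. Gdnf lay at 2.36 to 3.09 on LPS arrays and 2.63 to 3.37 on controls in the authors' deposited table, where LPS replicate 1, at 3.09, lay above control replicates 15 and 17, at 3.05 and 3.08. Fitted in limma, the authors' deposited table gave -0.53 for Map2 and -0.49 for Dlg4, with adjusted p values of 0.00835 and 0.0355. Gdnf, at -0.45, had a limma adjusted p of 0.0524 in the authors' deposited table and was not called.

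The genes were also compared with one another within each array, where any factor that multiplies all signals of the array cancels. An amount added to all signals, such as background left over, does not cancel and weighs most on the dimmest gene, Gdnf. The log2 difference Map2 minus Dlg4 was 0.26 ± 0.21 (SD, n = 5) in LPS arrays and 0.34 ± 0.17 (SD, n = 5) in controls. Map2 minus Gdnf was 1.54 ± 0.18 (SD, n = 5) and 1.43 ± 0.23 (SD, n = 5). Dlg4 minus Gdnf was 1.28 ± 0.38 (SD, n = 5) and 1.09 ± 0.12 (SD, n = 5). In all 3 pairs the groups overlapped. Control replicate 20 was the highest of the 10 arrays for Map2 minus Dlg4, at 0.63, and for Map2 minus Gdnf, at 1.80. The shifts between groups were -0.084 ± 0.12, 0.11 ± 0.13 and 0.19 ± 0.18 (SE). Exact 2-sided permutation tests over 252 assignments of the 10 arrays gave p = 0.476, 0.429 and 0.333, each 0.476 after Benjamini-Hochberg adjustment over the 3 pairs, where 0.00794 is the smallest p the design allows. These tests took arrays as exchangeable, although group went largely with slide. In them unequal change of any pair was not detected, which does not show that the genes changed alike. The direction depended on the processing: Map2 minus Gdnf shifted by -0.090 after normexp correction with quantile normalization, with an exact permutation p of 0.00794, and its direction turned in 4 of 17 other settings. That of Dlg4 minus Gdnf turned in 3. Dlg4 minus Gdnf was widest on LPS replicates 6 and 7 of slide 1, at 1.77 and 1.49, and narrowest on LPS replicate 1, at 0.77.

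**Figure D4:**
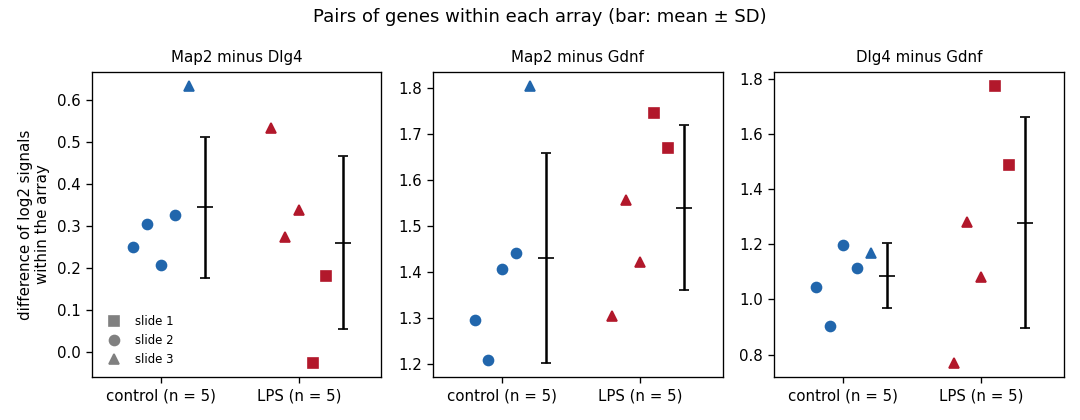
Difference of log2 signals between Map2 and Dlg4, Map2 and Gdnf, and Dlg4 and Gdnf within each control (blue) and LPS (red) array, with point shape giving the slide and black bars the mean ± SD of 5 arrays. The groups overlap in each panel, and the LPS arrays of slide 1 (squares, 1.77 and 1.49) are the highest for Dlg4 minus Gdnf.

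Among the 28 other genes with a named probe, likeness to each member was measured as the root mean square difference of centred log2 profiles over the 10 arrays. The genes most like Map2 were Med16, a subunit of the Mediator complex, at 0.13, Dlg4 at 0.17 and Gdnf at 0.19. Those most like Dlg4 were Map2 at 0.17, Med16 at 0.18 and Mex3c, an RNA-binding ubiquitin ligase, at 0.19. Those most like Gdnf were Map2 at 0.19, Med16 at 0.27 and Dlg4 at 0.27. Med16 was a brighter probe, with a mean signal of 151.1 that exceeded that of 60.4% of tested probes. It was called lower in LPS as well, at -0.60 with a limma adjusted p of 0.00552, and with slide as a fixed block it was at -0.21 with 0.434. Mex3c, at -0.36 with a limma adjusted p of 0.235, was not called. All these profiles share the same 10 arrays and the low control replicate 20, so likeness over them is a description.

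No other gene of the 4 lists of related genes that were checked could be followed. Of 11 genes listed as microtubule-associated proteins only Map2 had a named probe, of 16 postsynaptic density genes only Dlg4, and of 10 genes of the GDNF family and its receptors only Gdnf. None of 8 neurotrophins and their receptors had one. Of the 29 named genes tested, 10 were called (34.5%), 5 of them lower in LPS (17.2%), and Map2, Dlg4 and Gdnf were 3 of these 5.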

How the data were processed

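RNA of 5 LPS and 5 control rat lung samples was read on 1 single-colour array each. The authors deposited spot intensity values as written by Agilent Feature Extraction, per the file headers, with background subtracted and spots detrended within an array but not normalized between arrays. A second deposited table holds the authors' own log2 values, whose columns share a median of 6.18 and both quartiles. How it was made and centred is not stated, and its scale and direction were read from its correlation with log2 scanner signal (r = 0.9995 to 0.9999 across tested probes). Deposited flags gave outlier spots and spots well above background.

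Control and outlier spots were left out, log2 signals of a probe's spots were averaged, and each array's 75th percentile over the probes measured on all arrays was subtracted. Of 38804 probes, 126 lost all spots on some array to outlier marks and 2658 were well above background on fewer than 5 arrays. The other 36020 were fitted with limma 3.58.1 (lmFit, eBayes, 2-sided) in R 4.3.3 on the groups alone, with Benjamini-Hochberg adjustment over all of them. A random slide block used duplicateCorrelation and statmod 1.5.0. The fitting step was tested on simulated data with the same spread in both groups and no slide effect. That test does not bear on the overlap of group and slide. No pair of the 45 array pairs held identical values. The number of arrays limits the precision. Accessions were matched without version to the RefSeq gene table (assembly GRCr8) for names, and to its start regions. Likeness named the 3 closest genes per member. The members, lists and tests were chosen with earlier results of these data known. Alternatives were other scalings (quantile, median, cyclic loess, none), normexp with an offset of 50 before quantile normalization, the authors' table, other filters, array weights, eBayes with a trend and robust, slide as a block, slide 3 alone, outlier spots kept, median over spots and leaving out each array. The median over spots, and the within-slide values of pairs, were added after seeing the data.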

Additional observations from a re-analysis of the deposited data

How the results depend on the processing

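Over 25 other settings Map2 kept its direction in all and its call in 21, Dlg4 kept both in 12, and over 24 Gdnf kept both in 15, since the filter for probes well above background on all arrays removed Gdnf. Without scaling Map2, Dlg4 and Gdnf were at -0.22, -0.14 and -0.33. With slide as a fixed block, and equally on slide 3 alone, they were at -0.23, 0.026 and 0.15, and with slide as a random block at -0.43, -0.23 and -0.28. None of these was called by limma. After normexp correction with quantile normalization Dlg4 was at -0.10 and Gdnf at -0.060, neither called, and Gdnf was not called in the authors' deposited table (-0.45) or with the median over spots (-0.61). Normexp adds an offset of 50 to every spot, more than the signal of these probes, which shrinks their log2 differences by construction. Leaving out 1 array at a time gave -0.78 to -0.61 for Map2, -0.77 to -0.50 for Dlg4, where 8 of 10 omissions ended the call, and -0.98 to -0.69 for Gdnf, where 2 did.

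The count of called probes was 11876, of which 6564 were lower. It was 21921 with array weights, 3644 with slide as a fixed block, 3169 with a random block and 920 on slide 3 alone, and the count called lower was 12474, 1903, 1662 and 349 in these settings and 1292 without scaling. Leaving out 1 array gave 7886 (control replicate 17) to 19560 (control replicate 20) called probes, and 4288 to 10592 lower. Map2 minus Gdnf, at 0.11, turned to -0.090 after normexp, with an exact permutation p of 0.00794, to -0.083 in the authors' deposited table, to -0.064 with the median over spots and to -0.38 on slide 3. Dlg4 minus Gdnf, at 0.19, turned to -0.045 after normexp, to -0.036 in the authors' deposited table and to -0.13 on slide 3. The normexp offset by construction shrinks the difference of the dimmest gene, Gdnf, most, so the turns after normexp do not show unequal change. The cause of the other turns was not tested. No paired analysis was possible because the groups share no replicate number. The Gdnf signal lay near background, which limits its precision.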

Other observations

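Before background was subtracted, the mean brightness of the Map2 spots was 31.0 to 35.3 on LPS arrays and 34.7 to 38.2 on controls. For Dlg4 it was 28.8 to 33.1 and 30.9 to 35.8, and for Gdnf 20.6 to 24.6 and 23.9 to 24.6. The local background around the Gdnf spots was 19.7 to 22.2 on slide 2, 19.2 and 20.1 on slide 1 and 16.2 to 17.2 on slide 3. On LPS replicate 6 the Gdnf spots were thus 1.08 times as bright as their surroundings and on LPS replicate 1 they were 1.46 times as bright, the lowest and highest ratios of the 10 arrays. On LPS replicates 6 and 7 the Gdnf signals of 5.33 and 5.60 were the lowest of any probe counted as well above background on those arrays.

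Spots marked as outliers were unevenly placed. For Map2 all 6 were on LPS arrays, 3 of them on replicate 6, and for Gdnf 7 of 8 were on control arrays, 4 on replicate 17 and 3 on replicate 20. With these spots kept, Map2 was at -0.64, Dlg4 at -0.59 and Gdnf at -0.81, and all 3 kept their calls in limma. In no group of 5 arrays did the gap of the highest or lowest array to its neighbour exceed 0.71 of the range. The nearest was control replicate 20 for Gdnf, at 0.667.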
